A study of Homo sapiens with 12 samples.

Results

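Romidepsin was added to afatinib in MyLa cells, and the libraries of both drugs together were compared with those of afatinib alone. The comparison follows the treatment labels and holds 6 of the 12 libraries of the series, 3 with the combination and 3 with afatinib. Of 59050 gene names in the count table, 16208 passed a filter on low counts and were tested, and all of them enter the description.

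MyLa is an established cell line of cutaneous T cell lymphoma (CTCL), a cancer of T cells in the skin. RNA was sequenced after 24 h of treatment in medium with 20 ng/mL interleukin-2, which every group received. The afatinib group had 5.7 uM afatinib dimaleate, and the combination had the same dose together with 3.2 nM romidepsin. The other groups had 3.2 nM romidepsin or DMSO, the solvent, and serve here to show the romidepsin change in cells without afatinib. The volume of DMSO was matched to that of the combination in every group. A single cell line was used and no normal T cells. Whether the 3 numbered libraries of a group are separate cultures is not stated in the labels. The p-values therefore rest on the spread between libraries, which may be technical.

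Romidepsin is a cyclic peptide drug that inhibits class I histone deacetylases (HDACs), enzymes that remove acetyl groups from histones and act inside repressor complexes. Its use in CTCL is established, and drugs of its kind are known to switch on silent genes, to raise the cell cycle inhibitor CDKN1A and to lower many active genes. Afatinib binds covalently to a cysteine of the ERBB receptor kinases and of a few other kinases. In CTCL, cytokine receptors that signal through JAK kinases and STAT transcription factors are a known axis of growth and survival.

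The 6 libraries held 10274256 to 12696653 counted read pairs. Genes with at least 1 count numbered 23076 ± 375 with afatinib and 24528 ± 273 with the combination (SD, n = 3), and mitochondrial transcripts took 10.9% ± 0.165 and 11.9% ± 0.804 of the counts. T cell identity was only partly visible: CD3D, CD3G, CD247 and CD2 were tested, while CD3E (at most 2 counts in any of the 6 libraries), CD4 (1), LCK (1), CD5 (5), CD7 (2) and TRBC1 (9) were near absent. Of the ERBB receptors only ERBB2 passed the filter, and EGFR reached 10 counts, ERBB3 18 and ERBB4 3. Reads of the basal keratin KRT5 appeared in afatinib library 3 (126 counts) and combination library 1 (43 counts) and in none of the other 4. Without these 2 libraries and the DMSO libraries with such reads (59 counts in library 1 and 94 in library 2), 9965 of 11219 calls were made again in the same direction and none in the opposite direction.

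Most of the transcriptome moved. In edgeR's quasi-likelihood test 11219 genes passed an adjusted p of 0.05 (69.2% of those tested), of which 5421 rose (33.4%) and 5798 fell (35.8%) with the combination. Changes are given as log2 of the combination over afatinib, and levels as counts scaled to library size (CPM). At least 2-fold rises numbered 2638 (16.3%) and at least 2-fold falls 2568 (15.8%), and at least 4-fold rises numbered 966 and falls 639. Genes under 1 CPM in DMSO held 1003 of the 2-fold rises and 187 of the 2-fold falls. Many such genes passed the filter only through a group in which they were high. The balance of large rises and falls is therefore not read. In 11708 genes (72.2%) all libraries of the combination lay above, or all below, those of afatinib. The median change of all tested genes was -0.02, and the median size of a change was 0.67.

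**Figure D1:**
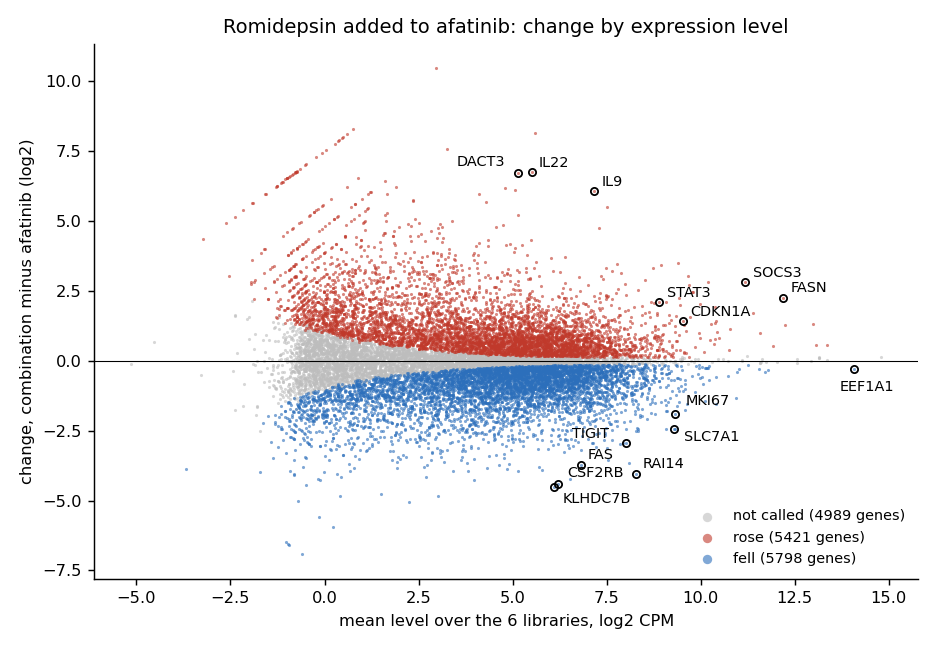
Change of each of the 16208 tested genes on adding romidepsin to afatinib (y axis, log2 of the combination over afatinib) against its mean level over the 6 libraries (x axis, log2 CPM); each point is a gene, red for the 5421 that rose, blue for the 5798 that fell and grey for those that did not pass the test. Rises of IL22, DACT3 and IL9 are the largest among the labelled genes, and KLHDC7B, CSF2RB and RAI14 are the lowest of them.

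Falls were called more often among genes of high level in untreated cells, taken from the DMSO libraries, which are in neither of the compared groups. Of 4992 genes at 1 to 10 CPM in DMSO, 24.8% fell and 31.3% rose (median change 0.05). Of 6741 genes at 10 to 100 CPM, 44.8% fell and 34.0% rose (median -0.11). Of 2167 genes at 100 CPM or more, 62.4% fell and 23.4% rose (median -0.37). The share that rose thus had no steady order, and calls are easier at high counts. The other 2308 tested genes were under 1 CPM in DMSO; many of them passed the filter on low counts only through a group in which they were high, so their direction is not read. The same holds for the low members of the gene lists, whose counts are given over the members that passed the filter. Values are shares of each library, so a change in the amount of RNA per cell is not measured.

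**Figure D2:**
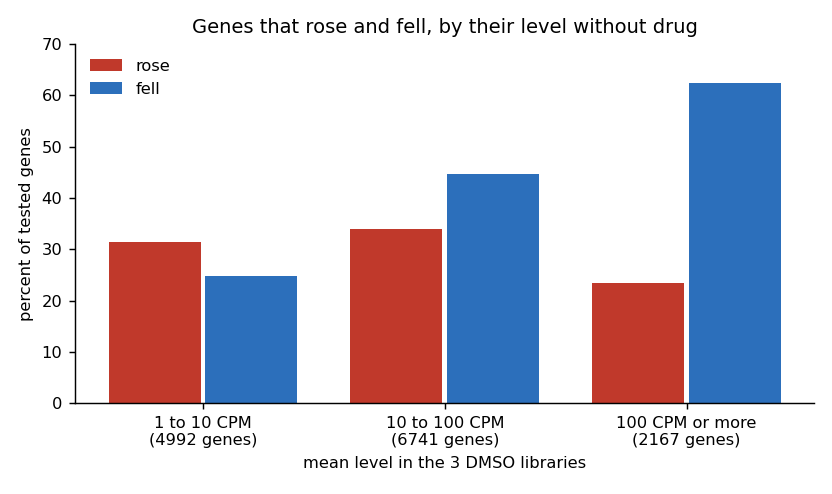
Percent of tested genes (y axis) that rose (red) or fell (blue) on adding romidepsin to afatinib, for 3 classes of mean level in the 3 DMSO libraries (x axis, number of genes in parentheses); genes under 1 CPM are not drawn. The share that fell goes from 24.8% at 1 to 10 CPM to 62.4% at 100 CPM or more, and the share that rose is 31.3%, 34.0% and 23.4%.

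Among the largest rises were genes that afatinib-treated cells hardly expressed. STC1, a secreted glycoprotein hormone, read 0.276, 0.379 and 0.321 CPM in the afatinib libraries and 92.3, 100.4 and 96.6 CPM in the combination. Its log2 change was 8.17 (SE 0.18, edgeR adjusted p = 2.6e-37), against 7.83 without afatinib. DACT3, an inhibitor of Wnt signalling (chromosome 19, 46647551 to 46661182), went from 0.553, 0.852 and 0.562 CPM to 68.7, 69.4 and 72.2 CPM, a log2 change of 6.73 (SE 0.16). Without afatinib it was 4.42, a difference of 2.31 (edgeR adjusted p = 4.7e-07). The combination libraries differed little among themselves. FAM43A rose 45.1-fold to 359.6, 314 and 404 CPM, and the calpain protease CAPN5 62.8-fold to 36.2, 31.1 and 35 CPM.

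A total of 89 genes had at most 3 counts in all afatinib libraries together and at least 10 counts in every combination library, and 10 genes met the mirror rule. The rule uses the same counts as the ratios below. Ratios and intervals of genes picked this way lean toward large values and serve as description only. HPCAL4, a neuronal calcium sensor (chromosome 1, 39678648 to 39691485), had 2, 1 and 0 counts with afatinib and 216, 250 and 246 with the combination, a ratio of 216 per depth (95% exact interval 73.5 to 1048, counting error only). CYP46A1, a brain enzyme that hydroxylates cholesterol, went from 1, 0 and 2 counts to 64, 72 and 98, a ratio of 70.9 (24.0 to 346). The homeobox gene DLX2 had 2, 0 and 0 counts against 75, 63 and 87, a ratio of 102 (28.0 to 849). The locus AC109635.8 on chromosome 11 had no count in any afatinib or DMSO library and 201, 188 and 184 counts with the combination. The lower end of its 95% exact interval was 140.7-fold higher. In the other direction GHRHR, the receptor for growth hormone releasing hormone, had 10, 13 and 12 counts with afatinib and none in the combination. The lower end of its 95% exact interval was 9.90-fold lower.

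The largest falls included a cytokine receptor chain. CSF2RB, the beta chain shared by receptors for interleukin-3, interleukin-5 and GM-CSF, fell from 143, 143 and 137 CPM to 5.23, 6.57 and 8.02 CPM (-4.40, SE 0.10, edgeR adjusted p = 1.6e-37). RAI14, an actin-binding protein, fell from 594, 576 and 576 CPM to 37.2, 36.4 and 32.2 CPM (-4.04, SE 0.07). All libraries of the combination were low and close together in both genes. CDH11, a mesenchymal cadherin, fell from 12.2 to 0.660 CPM, GPR183, an oxysterol receptor that guides lymphocytes, from 11.8 to 0.826 CPM, and ARHGAP25 from 54.5 to 3.69 CPM. The rule for the largest changes also named RGPD1, RGPD3, RGPD4, KCNJ18, SMIM10L2A and SMIM10L2B, which have near-identical copies, and the antisense gene ELFN1-AS1; their values are uncertain because shared reads were not counted and strand was not used.

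Promoters of 2 genes that rose and 2 that fell are shown because they stand for the main directions: a gene that was near off, a cell death gene, a death receptor and a replication gene. They are from RefSeq on GRCh38.p14, 250 bases before to 50 after the start, 5′ to 3′ on the strand of the gene, with GGGCGG on either strand in capitals, letters known as a GC box. HPCAL4 (chr1:39691384-39691683, minus strand) holds 1 match, BCL2L11 (chr2:111120664-111120963, plus strand) 3, FAS (chr10:88990548-88990847, plus strand) 1 and GINS3 (chr16:58392221-58392520, plus strand) 2.
HPCAL4: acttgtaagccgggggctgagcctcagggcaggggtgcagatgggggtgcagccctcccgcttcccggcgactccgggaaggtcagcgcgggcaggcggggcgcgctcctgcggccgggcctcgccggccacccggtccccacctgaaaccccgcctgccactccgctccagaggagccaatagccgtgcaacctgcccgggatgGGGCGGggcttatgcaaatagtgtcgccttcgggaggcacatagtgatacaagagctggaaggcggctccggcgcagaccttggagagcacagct
BCL2L11: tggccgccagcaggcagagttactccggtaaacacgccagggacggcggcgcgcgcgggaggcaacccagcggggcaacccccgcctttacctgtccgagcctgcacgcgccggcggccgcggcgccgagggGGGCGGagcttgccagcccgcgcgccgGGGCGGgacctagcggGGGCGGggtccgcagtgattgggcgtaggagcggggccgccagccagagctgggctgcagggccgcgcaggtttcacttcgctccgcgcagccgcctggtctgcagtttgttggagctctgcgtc
FAS: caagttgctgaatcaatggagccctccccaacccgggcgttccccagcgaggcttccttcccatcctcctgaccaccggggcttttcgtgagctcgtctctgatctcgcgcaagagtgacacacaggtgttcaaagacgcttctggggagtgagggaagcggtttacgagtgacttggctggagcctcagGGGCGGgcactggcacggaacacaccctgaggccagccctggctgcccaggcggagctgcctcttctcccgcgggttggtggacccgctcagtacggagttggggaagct
GINS3: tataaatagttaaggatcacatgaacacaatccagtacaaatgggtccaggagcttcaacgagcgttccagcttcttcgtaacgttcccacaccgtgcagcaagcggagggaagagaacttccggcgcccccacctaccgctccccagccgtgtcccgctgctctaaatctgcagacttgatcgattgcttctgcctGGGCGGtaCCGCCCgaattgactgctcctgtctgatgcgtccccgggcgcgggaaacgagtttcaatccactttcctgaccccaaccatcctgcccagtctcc
GGGCGG stood in 44.6% of all 27305 promoters of the table and in 69.4% of those of 9763 tested protein-coding genes, so its presence in the promoters shown is not read. A comparison of the risen and fallen genes by motif or GC content is void, because only 79.0% of the protein-coding genes that rose at least 2-fold had a promoter in the table.

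HDAC1 and HDAC2, class I enzymes that romidepsin inhibits, were not called, and HDAC3 of the same class rose. HDAC1 read 66.9, 68.6 and 65.5 CPM with afatinib and 62.8, 65.9 and 59.4 CPM with the combination (-0.10, SE 0.07, edgeR adjusted p = 0.23), and HDAC2 27.6, 29.8 and 25.1 CPM and 25.6, 25.7 and 26.2 CPM (-0.09, SE 0.10, 0.46). HDAC3, the catalytic subunit of a nuclear corepressor complex, rose from 29.1, 30 and 25.8 CPM to 67.4, 59.3 and 61.5 CPM (1.15, SE 0.08, 4.8e-17). Of 11 HDAC genes 6 rose and 2 fell (median 0.36), with HDAC5 and HDAC10 higher (0.91 and 0.82) and HDAC7 lower (-1.05). Of 17 histone acetyltransferases, the opposing enzymes, and bromodomain readers 13 fell and 0 rose in edgeR's test (14 and 0 at an unadjusted p of 0.05, 12 and 0 in DESeq2), with a median of -0.72 against -0.42 without afatinib. KAT5 (-2.0), KAT7 (-1.53), KAT2A (-1.49) and BRD9 (-1.07) were among the falls. DNA and histone methylation enzymes fell in 21 of 32 and rose in 7 (median -0.57); the H3K9 methyltransferase SUV39H1 fell from 11.4 to 2.17 CPM, and the H3K36 methyltransferase NSD2 from 467, 488 and 473 CPM to 136, 137 and 135 CPM.

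Genes often raised by HDAC inhibitors were also raised over afatinib, and 9 of them had a lower and 2 a higher change than in cells without afatinib by the test of the difference. Of 22 tested members 16 rose and 3 fell, and the median change was 1.39 with afatinib and 1.86 without it. CDKN1A, which encodes the CDK inhibitor p21, rose from 403, 412 and 395 CPM to 1086, 1076 and 1095 CPM (1.43, SE 0.05, edgeR adjusted p = 5.1e-28). Its change was smaller than the 2.11 without afatinib, a difference of -0.68 (edgeR adjusted p = 4.8e-10). CRIP2 rose by 4.26, GADD45B by 3.17 and TNFSF9, the ligand of 4-1BB, from 78.3, 80.4 and 73.2 CPM to 759, 735 and 802 CPM. Linker histone H1FX rose from 181, 185 and 181 CPM to 576, 569 and 683 CPM, and HIST2H2BE from 2.26 to 17.5 CPM. Of 42 tested genes with names of the clustered histones 34 rose and 1 fell (median 1.77, and 1.84 without afatinib); many of them are near-identical in sequence, so single values are uncertain.

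Cytokine genes changed in opposite directions. IL22, a cytokine that acts on epithelia (chromosome 12, 68248242 to 68253604), went from 0.829, 0.947 and 0.723 CPM to 92.7, 84.3 and 94 CPM (6.75, SE 0.17, edgeR adjusted p = 2.9e-31; 6.80 without afatinib). IL9, a growth factor for mast cells and T cells (chromosome 5, 135892246 to 135895827), went from 3.32, 4.45 and 4.90 CPM to 298, 269 and 287 CPM (6.06, SE 0.10, 6.8e-42), a larger change than the 4.33 without afatinib (difference 1.73, edgeR adjusted p = 5.2e-13). LIF, a cytokine of the interleukin-6 family, fell from 516, 515 and 490.2 CPM to 41.5, 39 and 40.3 CPM (-3.66, SE 0.06, 2.7e-41). No library of either group overlapped the other in these 3 genes, as in 72.2% of all tested genes. Of 19 tested T cell cytokines and TNF-family ligands 8 rose and 8 fell, with a median of 0.02. OSM, close kin of LIF, fell by 2.19 and IL15 rose by 2.30; both were picked after their values were seen.

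In the JAK and STAT group all 22 genes passed the test, 14 upward and 8 downward (median 0.41; 0.39 without afatinib). STAT3 rose from 183, 176 and 184 CPM to 778, 769 and 781 CPM (2.10, SE 0.05, edgeR adjusted p = 8.7e-35). SOCS3, the feedback inhibitor that STAT3 is known to induce, rose from 577, 599.6 and 566 CPM to 4024, 3972 and 4259.9 CPM (2.81, SE 0.06, 6.1e-39). STAT2 went from 31.5 to 139 CPM, JAK1 from 73.1 to 116 CPM, and the kinase gene PIM2 from 55.9, 54.8 and 52.8 CPM to 274, 244 and 268 CPM. The factors of the interleukin-2 and interleukin-4 arms went down. STAT5A fell from 431, 438 and 436 CPM to 148, 145 and 159 CPM (-1.53, SE 0.05) and STAT5B from 625, 598 and 616 CPM to 213, 221 and 221 CPM (-1.49, SE 0.05, edgeR adjusted p = 3.1e-29). STAT6 fell from 321, 344 and 317 CPM to 69.7, 65.2 and 69 CPM (-2.27, SE 0.06, 3.7e-34), and JAK3, the kinase bound to the common gamma chain, from 201, 207 and 194 CPM to 66.5, 70.1 and 72.7 CPM (-1.52). The alpha chain of the interleukin-2 receptor, IL2RA, named after its values were seen, fell from 835 to 243 CPM.

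**Figure D3:**
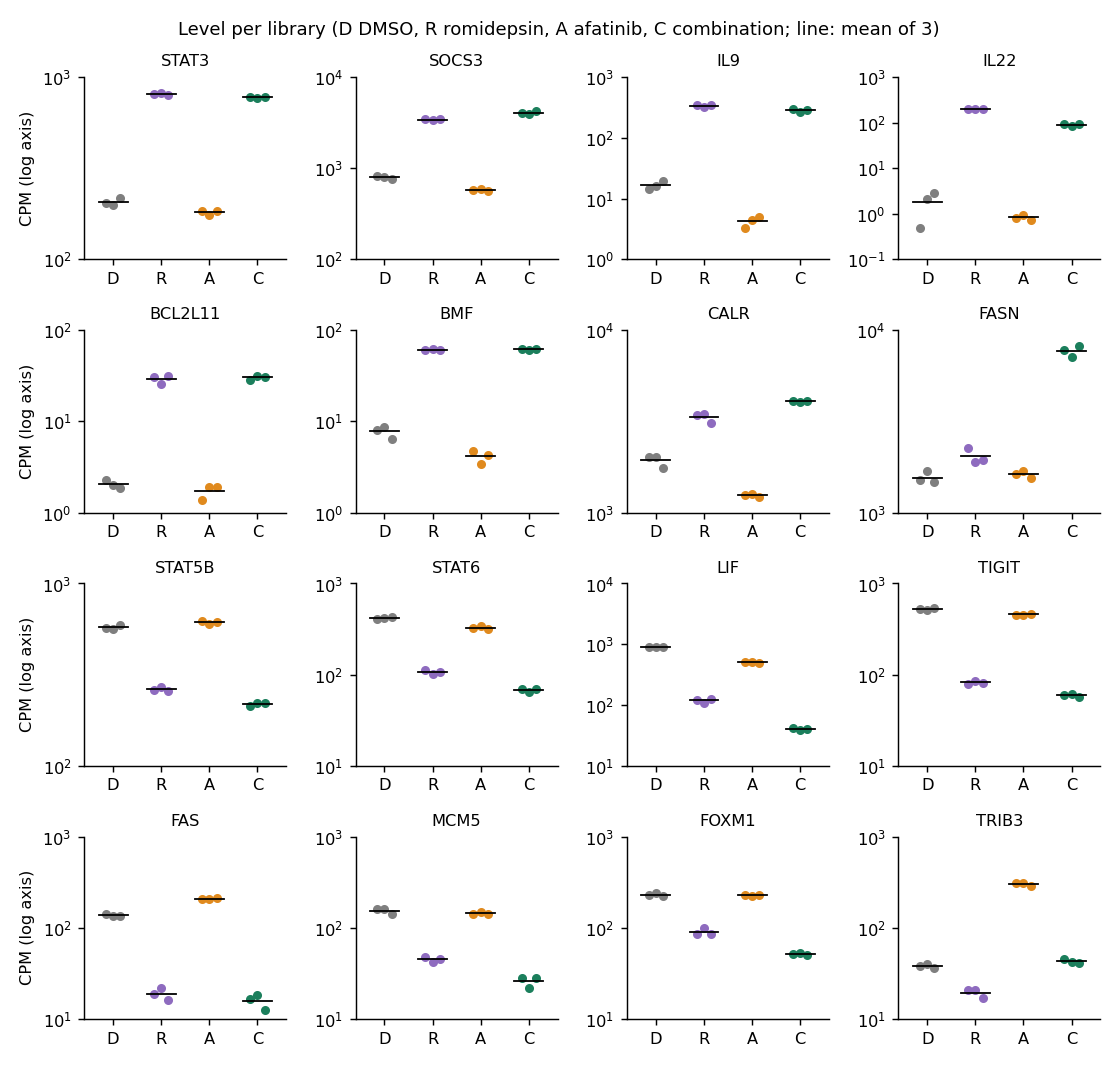
Level of 16 genes in each library (y axis, CPM on a log axis that differs between panels) for DMSO (D), romidepsin (R), afatinib (A) and the combination (C); each point is a library and the line is the mean of 3. In every panel the combination points lie apart from the afatinib points, above them in STAT3, SOCS3, IL9, IL22, BCL2L11, BMF, CALR and FASN and below them in STAT5B, STAT6, LIF, TIGIT, FAS, MCM5, FOXM1 and TRIB3.

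T cell genes mostly fell. All 6 tested T cell markers fell (median -1.60, and -1.37 without afatinib). The summed level of all 10 list members, tested or not, went from 244 to 262 CPM down to 73.3 to 73.9 CPM. In bulk RNA, fewer cells of a type and less RNA per cell cannot be told apart. CD3G, a chain of the T cell receptor complex, fell from 60.8, 53 and 59.7 CPM to 11, 15.8 and 10.7 CPM (-2.20, SE 0.11, edgeR adjusted p = 4.5e-23), CD247, the zeta chain, from 74.2, 66.1 and 64 CPM to 16.3, 13.3 and 15.8 CPM, and CD2 from 80.1 to 21.2 CPM. Of 17 genes of the receptor and its proximal signalling 11 fell and 3 rose (median -0.83). At least 2-fold, 7 fell and 2 rose, and the range of -2.20 to 3.85 had its largest change upward. UBASH3A, a phosphatase-family regulator of the receptor, fell by 2.03. Lists of markers of other cell types, for comparison, also had lower sums, although single members differed in direction. These sums also cover members that were not tested. In sum 16 keratinocyte markers (2 had no count in the 6 libraries) went from 264 to 295 CPM down to 186 to 205 CPM. The 9 B cell markers went from 61.6 to 65.1 CPM down to 17.5 to 22.0 CPM. The 10 myeloid markers went from 34.0 to 35.4 CPM down to 21.4 to 23.4 CPM. The 7 NK cell markers went from 2.49 to 2.65 CPM down to 1.22 to 2.37 CPM, and the 8 fibroblast markers from 101 to 105 CPM down to 15.4 to 18 CPM. Of 6 tested B cell markers 2 rose and 3 fell, and of 3 tested myeloid markers 2 rose and 1 fell. Falls were called for 3 of 8 tested keratinocyte markers, 1 of 2 tested NK cell markers and 3 of 4 tested fibroblast markers. Their part in the T cell result was not tested.

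Costimulatory and inhibitory receptors and ligands fell in 12 of 18 and rose in 6, with a median of -1.12 against -0.32 without afatinib. At least 2-fold, 11 fell and 3 rose, and the tested members ranged from -2.95 to 3.15. The genes named next are falls. TIGIT, an inhibitory receptor, fell from 455, 451 and 468 CPM to 59.7, 60.8 and 56.9 CPM (-2.95, SE 0.06, edgeR adjusted p = 5.9e-39). CD40LG, the ligand of CD40, fell from 56.3, 54.7 and 54.5 CPM to 7.39, 8.25 and 8.40 CPM (-2.78), against -1.37 without afatinib. CD86 fell by 2.19 and CD70 by 1.78. The 6 libraries again split without overlap, as in 72.2% of all tested genes. Chemokine and homing genes fell in 12 of 18 and rose in 3. At least 2-fold, 8 fell and 3 rose, with a range of -2.79 to 3.13, and again falls are named. CCR4, a skin-homing receptor and drug target in CTCL, fell from 402, 409 and 415 CPM to 90.3, 97.6 and 80.9 CPM (-2.19, SE 0.06), SELPLG, the backbone of the skin-homing antigen CLA, from 319, 315 and 283 CPM to 54.5, 43.2 and 47 CPM, and the LFA-1 integrin chain ITGAL from 194, 212 and 196 CPM to 30.6, 31.2 and 31.6 CPM. S1PR1, the receptor that guides exit from lymph nodes, fell by 2.13.

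Of 28 transcription factors of the T lineage 11 rose and 12 fell (median -0.21), shares near the 33.4% and 35.8% of all tested genes. MAF, a factor of helper T cells, rose from 2.67, 1.51 and 1.93 CPM to 30.7, 28.1 and 29.6 CPM (3.85, SE 0.17), IRF4 from 286, 276 and 277 CPM to 1113, 1158 and 1097 CPM and ID2 from 118 to 416 CPM. IKZF1, which encodes Ikaros, fell from 521, 523 and 533 CPM to 133, 146 and 135 CPM. Among genes known as raised or lost in CTCL, MYB fell from 111, 116 and 109.7 CPM to 14.9, 19.9 and 18 CPM (-2.67) and DPP4, the CD26 surface peptidase, fell by 0.93, while SATB1 rose by 1.30 and JUNB by 0.80. Of 5 tested cytotoxic granule genes 2 rose, CTSW (2.40) and SRGN (0.70), and 1 fell, PRF1 (-1.22), which encodes perforin.

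Proliferation genes fell. Of 42 DNA replication genes 40 fell and 1 rose (median -1.18; -0.87 without afatinib), with 22 of the 42 lower with afatinib than without it by the test of that difference and 2 higher. MCM5, a subunit of the replicative helicase, fell from 143, 149 and 142 CPM to 28, 21.8 and 28.4 CPM (-2.47, SE 0.08, edgeR adjusted p = 9.0e-31). GINS3, another part of that helicase, fell from 46.3, 42.4 and 46.3 CPM to 9.83, 8.63 and 8.33 CPM (-2.34), and UHRF1, which brings DNMT1 to newly made DNA, from 133, 163 and 143 CPM to 32.1, 30.6 and 33 CPM (-2.20). Every combination library was below every afatinib library in these genes, and 72.2% of all tested genes split without overlap. The gene that rose was RRM2 (0.38), a subunit of ribonucleotide reductase, named after its values were seen; 2 genes rose without afatinib library 3. Of 47 mitosis genes 38 fell and 4 rose (median -0.72; -0.74 without afatinib). FOXM1, a driver of mitotic transcription, fell from 226, 225 and 229 CPM to 51.7, 52.9 and 50.4 CPM (-2.13, SE 0.06, 5.7e-32), MKI67, which encodes the Ki-67 antigen, from 968, 1002 and 1041 CPM to 272, 269 and 272 CPM (-1.89), and the spindle checkpoint gene BUB3 by 1.74.

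G1 cyclins and their kinases fell in 9 of 14 and rose in 5 (median -0.98; -0.34 without afatinib). CCND2 fell from 769, 729.9 and 801 CPM to 288, 297 and 283 CPM and CDK4 from 181, 191 and 174 CPM to 68.2, 62.9 and 59.8 CPM, while CCND3 rose from 59.7, 65.5 and 63 CPM to 159, 152 and 165 CPM. For CDK4 the change of -1.52 exceeded the -0.63 without afatinib (difference -0.89, edgeR adjusted p = 1.8e-10). Of 6 tested CDK inhibitors 3 rose and 2 fell. CDKN2D rose by 1.39, and CDKN2C (-1.26) and CDKN1B (-0.96) fell. MYC rose from 493, 525 and 491 CPM to 709, 679 and 727 CPM (0.49, SE 0.05, edgeR adjusted p = 1.7e-11). Homologous recombination and Fanconi genes fell in 22 of 27 and rose in 1 (median -0.84), among them FANCD2 (-1.84) and BRIP1 (-1.58). Other repair genes fell in 20 of 29, and CHEK1, the replication checkpoint kinase, fell from 72.3 to 23.5 CPM.

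Cell death genes moved in both directions. BCL2L11, which encodes the BH3-only killer protein BIM (chromosome 2, 111119378 to 111168445; promoter above), rose from 1.38, 1.89 and 1.93 CPM to 28.8, 31.9 and 31 CPM (4.13, SE 0.16, edgeR adjusted p = 4.6e-27). BMF, another BH3-only gene, rose from 4.70, 3.41 and 4.34 CPM to 61.8, 61 and 62.5 CPM (3.89, SE 0.12, 8.9e-32), more than without afatinib (2.98; difference 0.91, edgeR adjusted p = 7.9e-05). BAX, an executor of mitochondrial permeability, fell from 138 to 53.7 CPM, and 5 of the 10 proapoptotic members rose and 4 fell. On the survival side BCL2L1, which encodes BCL-XL, fell from 219, 231 and 233 CPM to 76.9, 82 and 78.5 CPM (-1.52), BCL2L2 by 1.39 and BCL2 by 0.29, while MCL1 rose from 282, 272 and 290.4 CPM to 575, 629 and 591 CPM (1.09).

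The death receptors FAS and TNFRSF1A and the inhibitor gene CFLAR fell, while their list as a whole was even. FAS, the death receptor (chromosome 10, 88990531 to 89017059), fell from 208, 206 and 213 CPM to 16.6, 18.5 and 12.5 CPM (-3.72, SE 0.09, edgeR adjusted p = 9.2e-35), a larger fall than without afatinib (-2.88; difference -0.84, edgeR adjusted p = 2.0e-06). TNFRSF1A, a TNF receptor, fell from 41.6, 46.9 and 44 CPM to 11.7, 8.48 and 9.01 CPM, and CFLAR, which encodes c-FLIP, from 366, 374 and 364 CPM to 102, 105 and 104 CPM. Neither gene had overlapping groups, a trait of 72.2% of all tested genes. CASP9 rose by 1.44, and 10 of 25 death receptors, caspases and their inhibitors rose and 8 fell, shares near the 33.4% and 35.8% of all tested genes. Of 25 p53 targets 13 rose and 6 fell (median 0.20, range -3.72 to 3.22). TP53INP1 (3.22) and SESN1 (1.72) were among the rises, and the largest change was the fall of FAS, which is also on this list.

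Genes of the amino acid response, higher with afatinib than with DMSO, mostly fell on adding romidepsin. The 27 tested ATF4 and CHOP targets had a median change of 1.84 for afatinib over DMSO, a comparison that shares the afatinib libraries, and -0.46 for the combination over afatinib, with 16 that fell and 7 that rose. TRIB3, a pseudokinase induced by this response, read 38.2, 40.5 and 36.1 CPM in DMSO and 311, 314 and 289.9 CPM with afatinib and fell to 45.3, 42 and 40.7 CPM with the combination (-2.84, SE 0.07, edgeR adjusted p = 3.2e-35). SLC7A1, the cationic amino acid transporter, fell from 1049, 1041 and 1047 CPM to 192, 192 and 201 CPM (-2.42), and SLC38A1, a glutamine transporter, from 1061, 1059 and 1113 CPM to 191, 213 and 193 CPM. CHAC1, which degrades glutathione, went the other way, from 82, 90.9 and 80.9 CPM to 447, 398 and 452 CPM (2.35, SE 0.07), and stood at 9.22 CPM with romidepsin alone. ATF4 itself fell by 0.30, and DDIT3, which encodes CHOP, rose by 0.94; both were named after their values were seen. Of 20 aminoacyl tRNA synthetases 17 fell and 3 rose, with a median of -0.86 against -0.09 without afatinib; 13 were lower than without afatinib by the test of the difference and 2 higher. YARS fell from 197, 207 and 197 CPM to 66.6, 67.4 and 64.8 CPM, and GARS fell by 1.31 against -0.09 without afatinib.

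Folding genes of the endoplasmic reticulum rose, and by more than without afatinib. Of 22 members 16 rose and 3 fell, or 5 without DMSO library 2 or 3 (median 0.84; 0.34 without afatinib), and 13 were higher and 3 lower by the test of the difference. CALR, the chaperone calreticulin, rose from 1246, 1265 and 1213 CPM to 4115, 4032 and 4109 CPM (1.72, SE 0.06, edgeR adjusted p = 3.9e-30). HERPUD1, a part of the degradation machinery at this membrane, rose from 60.4, 59.6 and 60.2 CPM to 310.1, 299 and 291 CPM (2.32; 0.82 without afatinib). The stress sensor ERN1 rose by 1.90, and its target XBP1 fell from 246, 253 and 243 CPM to 71.8, 68.8 and 65.7 CPM (-1.85; -0.20 without afatinib). Cytosolic heat shock chaperones rose in 10 of 18 and fell in 3, with 10 higher and 2 lower by the test of the difference. DNAJB1, the HSP40 co-chaperone, rose from 292, 295 and 282 CPM to 2136, 2043 and 2033 CPM (2.84; 1.67 without afatinib), and HSP90AA1 by 1.01, while their regulator HSF1 fell by 1.14.

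Lipid synthesis genes rose. FASN, the fatty acid synthase (chromosome 17, 82078338 to 82098294), went from 1624, 1697 and 1544 CPM to 7819.8, 7153 and 8247 CPM (2.25, SE 0.07, edgeR adjusted p = 8.8e-32). Romidepsin without afatinib changed it by 0.39, and the difference of 1.87 passed the test (edgeR adjusted p = 4.0e-21). All libraries of the combination were more than 4-fold above those of afatinib in this abundant gene. Of 10 fatty acid synthesis genes 7 rose and 2 fell, 6 were higher by the test of the difference, and SREBF1, their transcription factor, rose from 154 to 344 CPM. Cholesterol genes rose in 14 of 24 and fell in 4, with a median of 0.45 against 0.54 without afatinib. By the test of the difference 5 were higher and 5 lower. INSIG1, the sterol sensor partner, rose from 178, 178 and 164 CPM to 1433, 1486 and 1384 CPM (3.05; 2.20 without afatinib), and HMGCS1, an early enzyme of the pathway, by 2.58.

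Single genes of glucose handling and many lysosome and hypoxia genes also moved. SLC2A3, the glucose transporter GLUT3, rose from 81.3, 84.5 and 82.4 CPM to 877, 917 and 890.4 CPM (3.44, SE 0.06), and SLC2A4, the insulin-responsive transporter GLUT4, from 1.20, 1.80 and 1.85 CPM to 44.5, 45.4 and 46.4 CPM (4.80; 2.23 without afatinib). Glycolysis as a list was even, with 7 of 20 that rose and 7 that fell, shares near the 33.4% and 35.8% of all tested genes. In it ALDOC rose by 2.89 and PFKM, a phosphofructokinase, fell by 2.40. Of 16 hypoxia response genes 12 rose and 3 fell (median 0.97), led by NDRG1 (3.31) and EPAS1 (3.06), which encodes HIF-2 alpha. Lysosome genes rose in 15 of 27 and fell in 6, and NEU1, the lysosomal sialidase, rose from 13.3, 14.6 and 11.6 CPM to 118, 110.3 and 135 CPM. Autophagy genes rose in 12 of 23 and fell in 4; MAP1LC3B, which encodes LC3, rose from 247, 236 and 234 CPM to 1115, 1202 and 1098 CPM, and GABARAPL1 from 4.15, 3.98 and 2.25 CPM to 29.7, 32.5 and 29.2 CPM (3.16; 5.02 without afatinib, difference -1.86, edgeR adjusted p = 2.0e-06).

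Interferon-stimulated genes differed in direction with and without afatinib. Of 27 members 16 fell and 4 rose over afatinib (median -0.86), whereas romidepsin over DMSO gave 13 that rose and 5 that fell (median 0.52); 19 were lower by the test of the difference and 1 higher. ISG15, a ubiquitin-like protein, fell from 54.5, 59.2 and 55.5 CPM to 32.5, 28.3 and 32.2 CPM (-0.86, SE 0.08, edgeR adjusted p = 4.4e-13) but went from 24.9, 25 and 21.3 CPM in DMSO to 90.6, 86.4 and 89.4 CPM with romidepsin alone (1.90). The difference between both changes was -2.77 (edgeR adjusted p = 1.4e-23). OAS2, an antiviral synthetase, fell from 39, 38.6 and 35.4 CPM to 6.58, 6.49 and 8.71 CPM and MX2 from 63.9, 67.4 and 68.5 CPM to 14.4, 15.7 and 16.7 CPM, and both fell without afatinib too (-1.62 and -1.30). DTX3L, a ubiquitin ligase, fell by 2.03 with no call without afatinib (0.07). In this list afatinib over DMSO, which shares the afatinib libraries, had a median of 1.25.

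NF-kB subunits and targets fell in 10 of 18 and rose in 6. NFKBIZ, an inducible nuclear regulator, rose from 283, 270.2 and 272 CPM to 1490.2, 1518 and 1507 CPM (2.45), and the feedback gene TNFAIP3 from 103 to 269 CPM, while TNFAIP2 fell by 1.62. Antigen presentation genes of class I fell in 8 of 16 and rose in 4. TAPBP, which encodes tapasin, was lower by 1.87 and PSMB8, an immunoproteasome subunit, by 1.72. At least 2-fold, 6 members fell and 2 rose, and the largest rise was 1.72. The summed level of all 17 list members rose from 3088 to 3258 CPM up to 5459 to 5660 CPM. In class II 4 of 8 fell and 0 rose in edgeR's test, as at an unadjusted p of 0.05 and in DESeq2. CIITA, the master activator, fell from 467, 452 and 439 CPM to 163, 171 and 171 CPM and RFX5 from 637, 674 and 640.0 CPM to 179, 177 and 173 CPM.

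Immediate early factors rose in 15 of 21 and fell in 2 (median 0.95; 0.58 without afatinib). EGR1 read 25.6, 21.2 and 18.7 CPM in DMSO, 4.15, 2.37 and 2.65 CPM with afatinib and 21.7, 19.6 and 26.5 CPM with the combination (2.89, SE 0.18, edgeR adjusted p = 4.2e-18). The combination lay near the DMSO level, and the change was larger than without afatinib (0.58; difference 2.31, edgeR adjusted p = 1.2e-10). For EGR1 that difference shares the afatinib and DMSO libraries with the fall from DMSO to afatinib. FOS rose from 1.47, 1.70 and 2.09 CPM to 20.6, 17.6 and 16.8 CPM. Among genes of MAPK feedback 9 of 16 rose and 2 fell, or 1 without DMSO library 1, afatinib library 3, combination library 3 or romidepsin library 1 or 3; the phosphatase gene DUSP2 rose from 42.3, 37.6 and 36.1 CPM to 349, 341 and 396 CPM and ETV5 by 2.44. Of 7 kinases with a cysteine open to inhibitors of the afatinib type 2 rose and 4 fell, with changes from -2.20 to 3.85. TEC was higher by 2.26, which was not the largest rise, and BLK (-2.20), MAP2K7 (-1.65) and JAK3 were lower. ERBB2 read 10.3, 11.1 and 11.9 CPM and 9.20, 7.41 and 9.55 CPM, a change of -0.35 that did not pass the test (edgeR adjusted p = 0.061); without combination library 3 it was -0.43 (adjusted p = 0.045), and without DMSO library 2, DMSO library 3 or romidepsin library 2 the adjusted p was 0.048, 0.043 and 0.048.

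Of 36 neuronal genes and genes repressed by REST, a silencer that recruits HDACs, 23 passed the filter, 16 of which rose and 3 fell (median 1.17; 0.79 without afatinib). Members at a low level with afatinib, such as SYN1, could pass through the groups in which they were high, so this count supports nothing by itself. SYN1, which encodes synapsin of synaptic vesicles, rose from 0.829, 0.852 and 0.562 CPM to 44.5, 33.5 and 37.7 CPM (5.68, SE 0.20, edgeR adjusted p = 2.3e-29). SCG2, a secretogranin of secretory granules, rose from 8.85, 6.91 and 7.47 CPM to 89.4, 93.6 and 90.1 CPM (3.56), against 0.70 without afatinib (difference 2.85, edgeR adjusted p = 6.4e-20). RAB3A, a vesicle GTPase, rose by 3.11 and MAPK8IP1 by 2.44. In each gene the lowest combination library was above the highest afatinib library, and 72.2% of all tested genes split without overlap.

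Core machinery changed by smaller steps. Splicing factors fell in 23 of 28 and rose in 4 (median -0.58), with U2AF2 lower by 2.18 and the abundant HNRNPU from 1007, 1004 and 993 CPM to 385, 344 and 366 CPM. Ribosome biogenesis genes fell in 20 of 30 and rose in 3, with the RNA polymerase I factor UBTF lower by 1.56, and proteasome subunits fell in 19 of 27 and rose in 1. The 37 cytosolic ribosomal protein genes were even, 10 up and 11 down (6 or 7 down without any 1 afatinib library) within -0.52 to 0.41. Of the 13 mitochondrially encoded mRNAs 0 passed edgeR's test (median 0.05), 1 had an unadjusted p under 0.05, and 1, MT-CO3, passed in DESeq2. Without DMSO library 3 they numbered 3, without DMSO library 1 or combination library 3 they numbered 2, and without DMSO library 2 or afatinib library 3 there was 1, in each case higher. Their most abundant member MT-CO1 read 27180.5, 26614 and 26899 CPM and 29679, 31536 and 28263 CPM (0.15, edgeR adjusted p = 0.061) and passed in some alternative fits, with a change of 0.18 without combination library 3 (adjusted p = 0.038) or without DMSO library 1 (0.021), 0.14 without DMSO library 3 (0.015), 0.19 with DESeq2 size factors (0.018), 0.16 with no filter (0.0062), 0.19 without the 4 libraries with keratin reads (0.034) and 0.19 with only the 6 libraries compared (0.00033).

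Several groups held few changes or changes both ways. Genes of the nuclear respiratory chain fell in 12 of 31 and rose in 7 (median -0.11), with CYC1 lower by 1.45 and NDUFA2 higher by 1.07. Targets of NRF2, the factor of the antioxidant response, fell in 10 of 19 and rose in 6: SRXN1 (2.18) and GCLC (1.62) rose, and KEAP1, the adaptor that degrades NRF2, fell by 2.16. In the MYC network 7 of 11 rose and 3 fell. Besides MYC, the partner MAX (0.70), the antagonists MXD1 (2.94), MXI1 (1.77), MXD4 (1.29) and MXD3 (0.30), and MYCL, which had no count with afatinib and a mean of 0.995 CPM with the combination, rose, and MLX (-0.71), MGA (-0.63) and MNT (-0.37) fell; MAX, MXD3, MYCL, MGA and MNT were named after their values were seen. Sirtuins and HDAC corepressor subunits rose in 9 of 21 and fell in 12, with MTA3 (-1.97) lower and SIRT7 higher (1.28). Of 7 germline genes 2 rose and 2 fell.

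**Figure D4:**
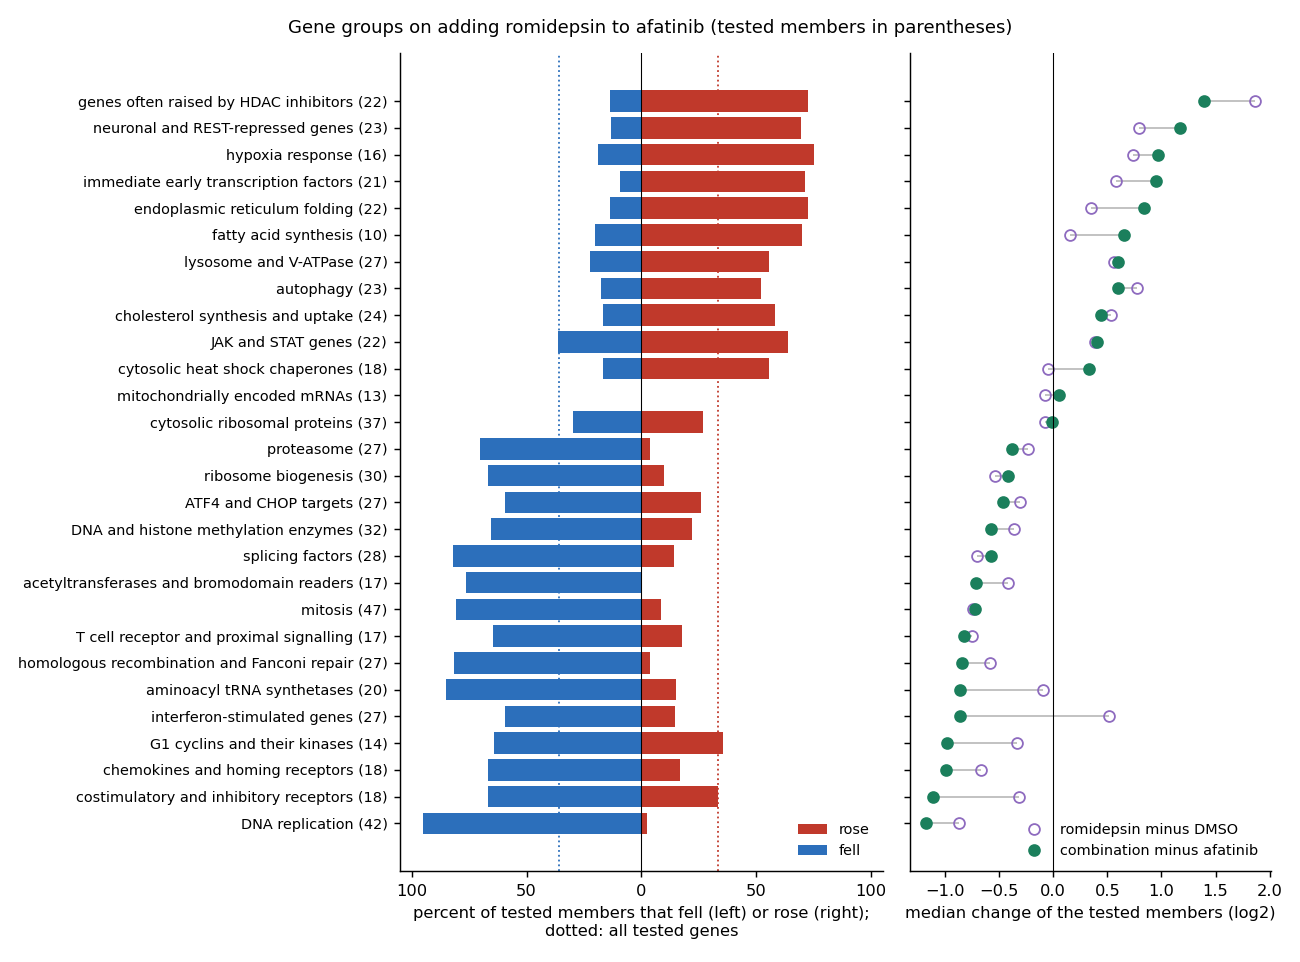
Left, percent of the tested members of 28 gene groups that fell (blue, to the left) or rose (red, to the right) on adding romidepsin to afatinib; dotted lines mark the 35.8% and 33.4% of all tested genes. Right, median log2 change of each group for the combination over afatinib (filled) and for romidepsin over DMSO (open); the markers lie farthest apart for interferon-stimulated genes, at -0.86 and 0.52.

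Among the largest gains in CPM were abundant genes. FLNA, the actin crosslinker filamin A, rose from 4595, 4863 and 4482 CPM to 11958, 10546 and 12546 CPM (1.33), and the nuclear RNA NEAT1 from 3052, 2616 and 2783 CPM to 6895, 6916 and 6663 CPM. Among the largest losses were EEF1A1, the translation elongation factor, from 19435, 19179 and 18295 CPM to 15594, 14969.9 and 15825 CPM (-0.29, SE 0.06, edgeR adjusted p = 1.6e-05), the scaffold gene AHNAK (-1.32) and NFE2L1, a factor that raises proteasome genes, from 1993, 2044 and 2017 CPM to 688, 688 and 682 CPM (-1.56). FTL, the ferritin light chain, fell from 3844 to 2894 CPM.

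The romidepsin change over afatinib could be set beside the romidepsin change over DMSO, since these pairs of groups share no library. Over DMSO 5039 genes rose (31.1%) and 5100 fell (31.5%), with a median size of change of 0.55 against 0.67 over afatinib. Across the 16208 genes, which are not independent replicates, the changes had a Pearson correlation of 0.83 and a Spearman correlation of 0.81. Rises called in both pairs numbered 3964, which is 73.1% of those over afatinib and 78.7% of those over DMSO, and shared falls numbered 4226 (72.9% and 82.9%). Another 339 genes were called in opposite directions.

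The size of the change differed in many genes. The test of the difference between both changes called 1895 genes higher with afatinib (11.7%) and 3003 lower (18.5%). Among the 4226 shared falls 1346 were deeper and 225 shallower with afatinib (medians -1.02 and -0.79), and among the 3964 shared rises 743 were larger and 416 smaller (medians 1.06 and 0.96). A further 1322 genes rose and 1368 fell over afatinib without a call over DMSO; the difference itself passed the test in 508 and 642 of them.

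**Figure D5:**
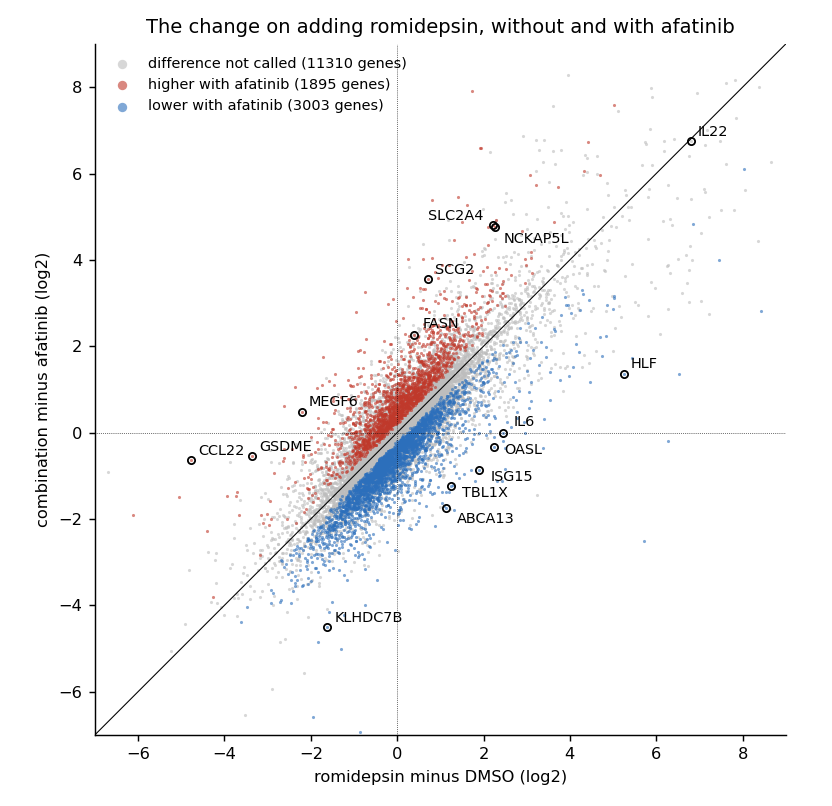
Log2 change on adding romidepsin to afatinib (y axis) against the log2 change on adding romidepsin to DMSO (x axis) for 16208 genes; red and blue mark the 1895 genes higher and 3003 lower with afatinib by the test of the difference, grey the rest, and the diagonal marks equal changes. The cloud follows the diagonal, IL22 lies on it, and CCL22, HLF, SCG2 and KLHDC7B lie far from it.

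Some of the widest differences were in genes that afatinib alone had moved. The difference contains the change of afatinib over DMSO with its sign reversed, so this pattern is partly built in. KLHDC7B, a kelch-domain gene, read 6.75, 6.46 and 8.32 CPM in DMSO, 127, 133 and 132 CPM with afatinib and 4.69, 6.03 and 6.26 CPM with the combination (-4.51, SE 0.11, edgeR adjusted p = 3.0e-36; -1.62 without afatinib). NCKAP5L, which binds microtubules, read 21.7, 27.5 and 21.8 CPM in DMSO, 9.58, 11.6 and 12 CPM with afatinib and 304, 293 and 308 CPM with the combination (4.76; 2.26 without afatinib). HLF, a PAR bZIP factor, rose from 4.79, 7.38 and 6.58 CPM to 14.3, 17.8 and 16 CPM (1.36) and reached 92.9, 109 and 97 CPM with romidepsin alone (5.24). In HLF the combination was well below romidepsin alone and above afatinib.

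CCL22, a ligand of CCR4, was at 44.6, 51.6 and 44.2 CPM in DMSO, 2.21, 3.03 and 3.61 CPM with afatinib and 2.25, 2.06 and 1.45 CPM with the combination. Its change of -0.64 (edgeR adjusted p = 0.020) came with overlapping groups and did not pass without afatinib library 3 (-0.42, adjusted p = 0.20), without combination library 3 (-0.47, 0.12), without the 4 libraries with keratin reads (-0.54, 0.16) or with only the 6 libraries compared (-0.60, 0.068); over DMSO it fell by 4.79. IL6 stood at 2.21, 2.75 and 3.21 CPM and 1.98, 2.75 and 3.28 CPM, with overlapping groups and a change of -0.02 (edgeR adjusted p = 0.95), against 2.45 without afatinib. GSDMB and TEF rose over afatinib (0.85 and 1.14) and fell over DMSO (-0.57 and -0.58), and ABCA13 and TBL1X fell over afatinib (-1.75 and -1.23) and rose over DMSO (1.12 and 1.24).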

How the data were processed

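RNA-seq of 12 libraries in 4 groups of 3 was used as deposited. Per the file headers, the deposited counts are unnormalized read pairs assigned by featureCounts 2.0.0 to gene names of GENCODE 31, with strand ignored and multi-mapping pairs left out. STAR 2.7.9a, GRCh38.p12 and DESeq2 1.38.1 are named in the submitters' processing notes. The library kit is not given here.

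Genes were kept by edgeR's filterByExpr and scaled by TMM. Tests were edgeR 4.0.16 (R 4.3.3), robust quasi-likelihood fits (glmQLFit, glmQLFTest) of 4 group means to 12 libraries, two-sided, Benjamini-Hochberg adjusted over 16208 genes at 0.05, without a replicate block; the spread was 6.13% (biological coefficient of variation). CPM use TMM factors; 3 counts equal 0.229 to 0.284 CPM in the 6 libraries, and intervals cover counting error only. The test of the difference was (combination minus afatinib) minus (romidepsin minus DMSO). It was tested on simulated data. Alternatives were DESeq2 1.42.0, other scalings and filters, a block, 6 libraries only, and libraries left out.

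Named genes were the 15 highest and 15 lowest changes among called genes of at least 5 CPM over the 6 libraries without overlap, the 6 and 6 largest CPM differences, genes near off in 1 group, the 8 and 8 widest differences between the romidepsin changes, the 6 and 6 opposite calls with the largest smaller change, up to 4 members of each of 64 lists, and set genes of the drug targets and JAK and STAT signalling. Some of them are not described, and some are not reported here. The members, lists and rules were chosen with earlier results of these data known. A second deposited table, of normalized counts, was not used here because its values do not follow the counts.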

Additional observations from a re-analysis of the deposited data

Results flagged for a closer look

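For 23 named genes the change on adding romidepsin differed between cells with and without afatinib by the test of that difference, an interaction in edgeR over all 12 libraries. Values are the log2 change with afatinib minus that without it, each adjusted p was under the threshold, and no cause was tested.

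Higher with afatinib were SCG2 (2.85), SLC2A4 (2.57), NCKAP5L (2.50), HPCAL4 (2.57) and RGS9 (2.52), which rose in both settings and more with afatinib. For HPCAL4 the difference was 1.94 (adjusted p = 0.070) without DMSO library 2 and 0.65 (0.74) without the 4 libraries with keratin reads, and for RGS9 it was 1.84 (0.10) without those 4 libraries, a fit that has 1 DMSO library, assumed to vary like the other groups. CCL22 (4.15) and GSDME (2.81) fell steeply without afatinib (-4.79 and -3.36) and stood at -0.64 and -0.55 with it; GSDME passed the test over afatinib only without combination library 3 (-0.70, adjusted p = 0.043) or romidepsin library 3 (-0.55, 0.047). MEGF6 (2.69) fell without afatinib (-2.21) and rose with it (0.48), a rise that did not pass without afatinib library 3 (0.40, adjusted p = 0.057), combination library 1 (0.39, 0.059) or the 4 libraries with keratin reads (0.30, 0.20). Falls without afatinib and rises with it were called for TEF (1.72), GSDMB (1.42), GPR3 (1.39), ABCB6 (1.37), ZNF497 (1.19) and FN3K (1.17).

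Lower with afatinib was HLF (-3.88), which rose in both settings. KLHDC7B (-2.89) fell in both and more with afatinib. ABCA13 (-2.88), ISG15 (-2.77), TBL1X (-2.48), PSD3 (-1.97) and TTC28 (-1.86) rose without afatinib and fell with it. OASL (-2.58) rose without afatinib (2.24); its fall of 0.34 over afatinib passed by little (adjusted p = 0.035) and did not in 9 alternatives, with adjusted p of 0.051 to 0.30, among them without DMSO library 1, afatinib library 2 or 3, or combination library 1 or 3. IL6 (-2.47) rose without afatinib (2.45) and was not called with it (-0.02).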

How the results depend on the processing

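All counts of called genes stayed within 1.5 times the reported ones under the 20 alternatives. Genes higher numbered 5212 to 5836 and genes lower 5188 to 5974, with 9965 to 11185 of the 11219 calls made again in the same direction and 0 in the opposite one; the lowest number came without the 4 libraries with keratin reads. The median of all genes shifted by at most 0.04. Of 6514 recomputed values of named genes 6480 kept their side of the threshold and their direction, 20 lost the call, 14 gained it and 0 reversed; the genes concerned are named beside their values, with SLC39A10 (-0.36, adjusted p = 0.062, without the 4 libraries with keratin reads) and NCAM1 (1.00, 0.035, with only the 6 libraries compared). Of 2560 recomputed list counts 58 moved by more than 1.5 times. With the replicate block 11148 genes were called (5390 higher and 5758 lower), 11117 of them shared. Libraries with the same number did not deviate together (correlations -0.09 to 0.09), so the numbers were not taken to pair the samples. The test of the difference could not be run on only the 6 libraries, which lack romidepsin alone and DMSO. Without the 4 libraries with keratin reads the test of the difference called 1292 genes higher and 2086 lower with afatinib; that fit has 1 DMSO library, assumed to vary like the other groups.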

Other observations

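Of the 33 tested cytoskeleton and adhesion genes 15 rose and 11 fell (median 0.21). Of 23 tested genes of the TGF-beta and BMP pathway 12 rose and 6 fell (median 0.47). Clock and PAR bZIP genes rose in 7 of 14 and fell in 3, with DBP (1.83) and ARNTL (1.75), the latter encoding BMAL1, among the rises. TXNIP, which restrains glucose uptake, rose from 66.3, 65.3 and 69.1 CPM to 353, 381 and 350.3 CPM, a change of 2.43 that was smaller than the 3.19 without afatinib (difference -0.76, edgeR adjusted p = 6.8e-10). The nuclear lamina genes moved apart: LMNA rose from 405, 383 and 394 CPM to 1653, 1538 and 1661 CPM (2.04) and LMNB1 fell from 364, 348 and 351 CPM to 75.4, 78.3 and 88 CPM (-2.13). MYO1G, a myosin of blood cells, fell from 914 to 167 CPM. Among the efflux transporters ABCC1 fell by 1.57 and ABCG1 rose by 2.65, and ABCB1 had at most 2 counts in any of the 6 libraries.

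By gene class, 49 of 85 genes with names of mitochondrial ribosomal proteins fell and 11 rose (median -0.53). On chromosome X 41.1% of 499 tested genes fell and 26.1% rose (median -0.20), against 35.8% and 33.4% of all tested genes (median -0.02). The lower share of rises on this chromosome was not tested. Genes spanning at least 200 kb rose at least 2-fold in 22.0% of 962, against 16.3% of all tested genes, and fell at least 2-fold in 16.9% against 15.8%. Large rises can include genes that passed the filter only through a group in which they were high, so these shares are not read. Among markers of other cell types the collagen genes COL1A1 and COL3A1 fell from 54.3 to 8.68 CPM and from 45 to 7.02 CPM. SFN fell from 126 to 60.4 CPM and TP63 from 62 to 48.6 CPM. The myeloid markers CD14 (3.06) and CSF1R (1.41) rose, CD14 being chosen after its values were seen. Of 3 tested myeloid markers 1 fell (-2.59). The summed level of all 10 myeloid list members fell, from 34.0 to 35.4 CPM down to 21.4 to 23.4 CPM.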
